A study of Mus musculus with 6 samples.

Results

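Centromere and kinetochore genes were followed by RNA-seq in mouse neural stem cells under reprogramming toward pluripotency. The set is a list of 40 names, with no measured value in its rule: genes of the centromeric chromatin, the kinetochore and its spindle checkpoint. By gene name, 37 of the 40 were found among 20325 genes, and all 37 passed the filter on low counts. Ska2, Ska3 and Mis18a were not found under those names. Both populations came from neural stem cells of mice at postnatal day 4, on a mixed 129/Black 6 strain. The animals were homozygous for a doxycycline-inducible Oct4, Sox2, c-Myc and Klf4 cassette (Stemcca) at ColA1 and heterozygous for the transactivator rtTA at Rosa26, which switches the cassette on when doxycycline is given. After doxycycline until day 7 the cells were fixed, permeabilised, stained, and sorted by Nanog and E-cadherin protein. Nanog+E-cadherin+ cells (n = 3) and Nanog+E-cadherin- cells (n = 3), here called E-cadherin+ and E-cadherin-, therefore share the cassette, the doxycycline and Nanog protein, and differ in the E-cadherin gate. No uninduced or unsorted sample entered the comparison.

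The centromere is the stretch of each chromosome at which the spindle pulls. It is marked by nucleosomes that carry CENP-A in place of histone H3, and these are replenished once per cell cycle by the chaperone HJURP and the Mis18 proteins. A network of CENP proteins sits on this chromatin throughout the cycle. In mitosis the network recruits the outer kinetochore, whose Ndc80 complex grips microtubules, while Mad and Bub proteins hold back anaphase until every chromosome is attached. Many of these genes are transcribed mainly in dividing cells, late in the cycle, whereas others are transcribed at all times.

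The 6 libraries held between 8851110 and 39630916 expected counts each. Cdh1, which encodes E-cadherin, stood between 104 and 143 CPM in E-cadherin+ libraries and between 15.4 and 20.3 CPM in E-cadherin- libraries, so the transcripts followed the sort. Nanog stood between 78.6 and 135 CPM over both populations. Of 9 tested markers of neural stem cells and radial glia 7 had a fitted change below 0, as had 6938 of all 13460 genes tested. Nes was at 86.1 CPM or more in every library. Sox2, also a factor of the cassette, was at 379 CPM or more. Others were uneven: Hes5 ran from 2.90 CPM in E-cadherin+ replicate 3 to 292 CPM in E-cadherin- replicate 1. Msi1 was lower in E-cadherin+, at 80.2 ± 7.98 against 122 ± 5.99 CPM (SD, n = 3 each). It passed in neither edgeR fit (edgeR's adjusted p = 0.188 with the block). Of 13 tested neuron markers 10 had a fitted change below 0, as had 6938 of all 13460 genes tested. The other 3, Stmn2, Gap43 and Nefl, were above 0, at 0.15, 0.12 and 0.64 on the log2 scale. The summed level of the list ran from 293 to 954 CPM of library totals in E-cadherin+ and from 459 to 1363 in E-cadherin-. The most abundant by its mean was Tubb3, at 342, 78.5 and 31.1 CPM in E-cadherin+ replicates 1 to 3 and 632, 249 and 75.5 CPM in E-cadherin- replicates 1 to 3, and it fell with the block (-1.27 ± 0.17 on the log2 scale, SE, edgeR's adjusted p = 0.0370). Stmn2 reached 465 CPM in E-cadherin+ replicate 1, and Mapt 278 CPM in E-cadherin- replicate 2. Rbfox3 was at 3.20 CPM or less in every library, Rbfox3 and Nefl were at 0 in E-cadherin- replicate 3, and Nefm and Gad1 were at 0 in E-cadherin- replicates 2 and 3. A set of 6 genes, Xkrx among them, was taken from an earlier analysis of these libraries as markers of background sequence. It summed to 824 and 467 CPM of library totals in E-cadherin- replicates 2 and 3. In E-cadherin+ replicates 2 and 3 it summed to 83.4 and 27.7 CPM. In replicate 1 it was 1.39 CPM for E-cadherin+ and 2.70 CPM for E-cadherin-. Below, the libraries with background sequence are E-cadherin- replicates 2 and 3, which held the most. Fits without them keep E-cadherin+ replicates 2 and 3. The part of the neuron list and of this background in the results that follow was not tested. In sorted bulk cells, fewer cells in mitosis and less RNA per cell cannot be told apart. Whether replicates are separate cultures or animals is not said in the labels, and the p-values then reflect no more than the spread among these 6 samples, which may be technical.

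All 37 genes had a fitted change above 0, that is, toward higher values in E-cadherin+ cells, against 48.5% of the 13460 genes tested. With the replicate number as a block all 37 were again above 0, where 51.9% of all genes were. Their median log2 fold change was 0.57, with a range from 0.18 for Cenpo to 1.57 for Spc25, and the median over all genes tested was -0.01. A fitted change of 1 or more on the log2 scale was seen for 7 genes, Spc25, Sgol1, Bub3, Cenpl, Cenpk, Cenpf and Cenpn. With population as the only term, edgeR's quasi-likelihood test called none of the 37 at an adjusted p under 0.05, as it called 0% of all genes, and each of the 37 had an adjusted p of 0.9999. DESeq2 and limma-voom without pairing also called 0 of the 37 (0.156% and 0% of all genes). In that fit DESeq2 gave no adjusted p for 22 of the 37, Spc25 among them, so its count covers only the rest. At an unadjusted p under 0.05 edgeR had 7 of the 37, all higher (1.08% of all genes were called higher), DESeq2 11 (1.33%) and limma-voom 9 (1.14%). With the block, Bub3 and Spc25 rose, 5.41% of the genes against 0.215% of all genes called higher, and 20 of the 37 had an unadjusted p under 0.05, all higher (5.51% of all genes). With that block DESeq2 and limma-voom each called the same 7 genes, Bub3, Cenpf, Cenpn, Hjurp, Nuf2, Sgol1 and Spc25 (2.26% and 1.96% of all genes in either direction).

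The direction held under each scaling tried, whether by TMM, by DESeq2 size factors, by library totals or on the authors' TPM values. It depended on single libraries for some genes. Without E-cadherin+ replicate 1, 35 of the 37 stayed above 0, with Cenpa and Cenpm under it. Without both libraries that hold the most background sequence 28 of the 37 did. That fit has a single E-cadherin- library left and keeps E-cadherin+ replicates 2 and 3, which hold some of this sequence. The blocked count of 2 was 4, 5 and 15 when pair 1, pair 2 or pair 3 was left out, where 194, 139 and 510 of all genes were called. For 16 of the 37 genes every E-cadherin+ library lay above every E-cadherin- library, against 3.74% of all genes, and for none was it the other way round. On the authors' TPM scale 10 of the 37 had no overlap (3.19% of all genes), 8 of them shared with the CPM scale. Cenpc1, Cenpi, Dsn1, Hjurp, Mad1l1, Mis12, Ska1 and Zw10 were without overlap on the CPM scale only, and Cenpn and Cenpp on the TPM scale only. Where no scale is named below, overlap is on the CPM scale. Set against E-cadherin- replicate 1 alone, 21 of the 37 had every E-cadherin+ library above it (21.5% of all genes).

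**Figure D1:**
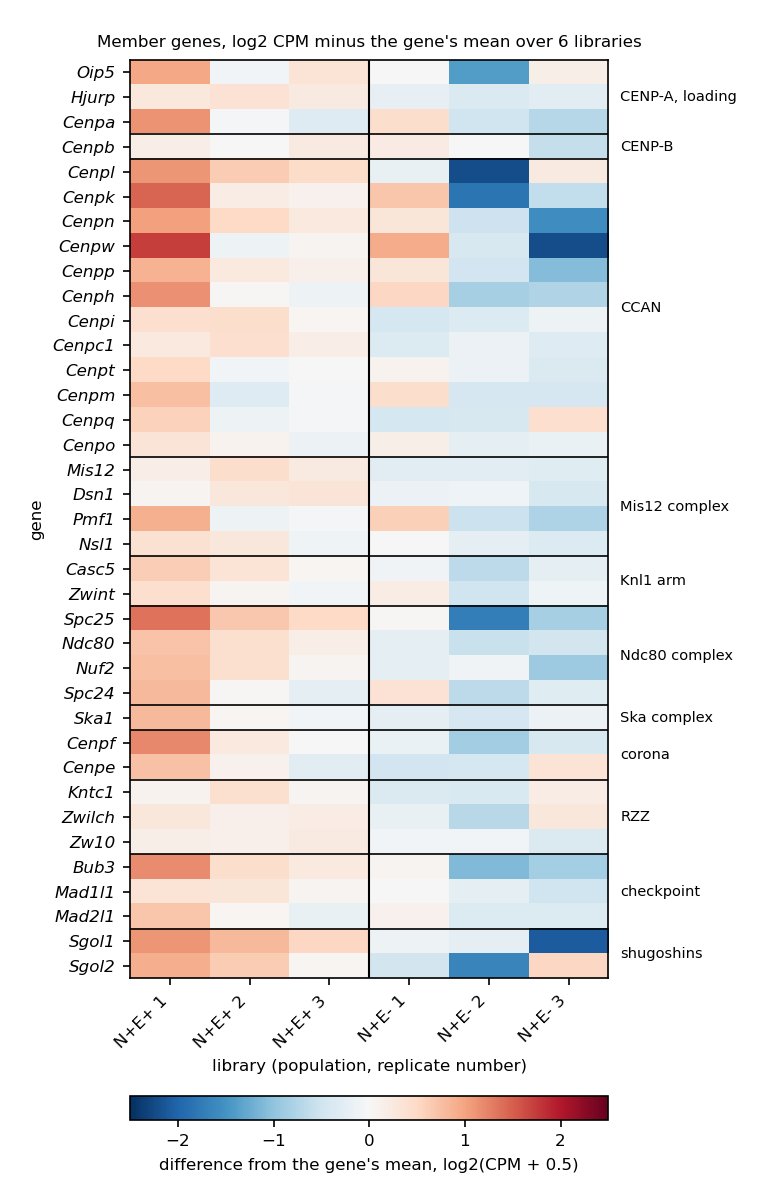
Level of each gene in each library as log2(CPM + 0.5) minus that gene's mean over the 6 libraries, with E-cadherin+ libraries (N+E+) left of the line and E-cadherin- libraries (N+E-) right of it, and genes grouped by role. E-cadherin+ replicate 1 holds the highest value for 29 of 37 genes, and E-cadherin- replicates 2 and 3 hold the lowest for 19 and 14.

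Within equal replicate numbers the genes leaned the same way in each pair. E-cadherin+ was above E-cadherin- for 36 genes in pair 1, 36 in pair 2 and 32 in pair 3, with median log2 ratios of 0.64, 0.68 and 0.41 (0.005, -0.01 and 0.04 over all genes tested). Cenpb alone was lower in pairs 1 and 2, with log2 ratios of -0.03 and -0.02. In pair 3 Cenpe, Cenpq, Kntc1, Sgol2 and Zwilch were lower. In all 3 pairs together 31 of 37 genes were higher, against 18.9% of all genes. Pair 1 had a ratio above 1 on the log2 scale for 9 genes, as did pair 2, and pair 3 for 6. The average standardised profile of the 37 genes was 1.19, 0.45 and 0.15 in E-cadherin+ replicates 1 to 3 and -0.06, -0.98 and -0.75 in E-cadherin- replicates 1 to 3, so E-cadherin- replicate 1 lay nearer to E-cadherin+ replicate 3 than to its own group.

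**Figure D2:**
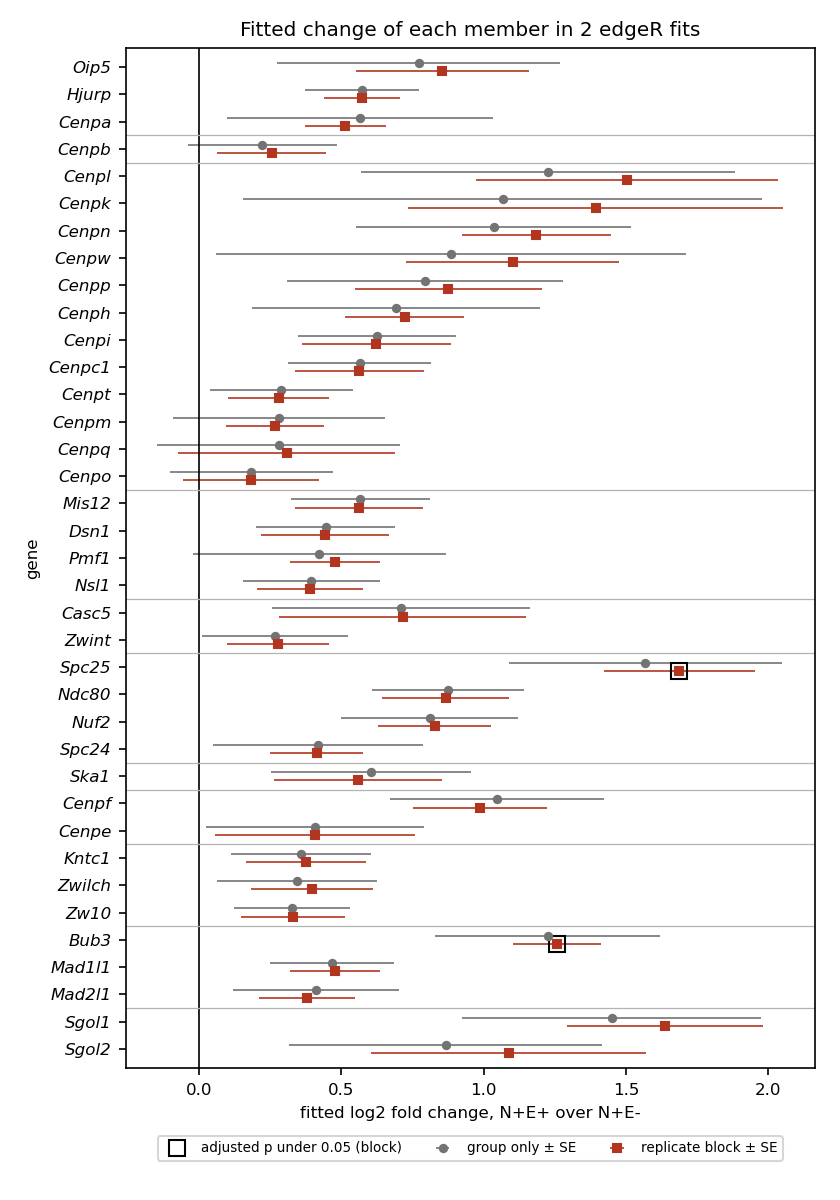
Fitted log2 fold change of each gene, E-cadherin+ over E-cadherin-, with its standard error in edgeR fits with population only (grey circles) and with the replicate block (red squares), on a linear axis. All 37 points lie right of 0 in both fits, and the 2 boxed genes, Spc25 and Bub3, passed an adjusted p of 0.05 with the block.

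Promoters of 4 genes are shown to set the genes that passed beside others with smaller changes, from Spc25, a subunit of the Ndc80 complex, and Bub3, a checkpoint protein, which rose with the block, through the centromeric histone Cenpa to the satellite-binding protein Cenpb. They were chosen after the values were seen. They are the 120 bases before the start site from RefSeq on GRCm38.p6, a later build than the mm9 of the counts, for Spc25 (chr2:69206214-69206333, minus strand), the first of the start sites listed for Bub3 (chr7:131560250-131560369, plus strand), Cenpa (chr5:30666766-30666885, plus strand) and Cenpb (chr2:131180068-131180187, minus strand). Capitals mark CCAAT boxes and the element TTTGAA, known as the cell cycle genes homology region, each also in its reverse complement where it lies on the opposite strand. Both are common in promoters of genes expressed in mitosis.
Spc25: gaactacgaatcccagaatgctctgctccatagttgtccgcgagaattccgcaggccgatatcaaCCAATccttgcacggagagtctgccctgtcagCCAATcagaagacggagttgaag
Bub3: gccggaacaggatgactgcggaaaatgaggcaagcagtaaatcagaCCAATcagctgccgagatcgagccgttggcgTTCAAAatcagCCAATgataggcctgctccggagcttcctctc
Cenpa: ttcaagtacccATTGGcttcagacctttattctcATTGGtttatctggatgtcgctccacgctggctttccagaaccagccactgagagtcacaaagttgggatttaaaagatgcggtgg
Cenpb: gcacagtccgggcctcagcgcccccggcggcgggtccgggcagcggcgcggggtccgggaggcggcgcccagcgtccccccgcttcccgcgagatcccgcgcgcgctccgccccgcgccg
Spc25 had CCAAT boxes whose first bases lay 55 and 23 bases before the start. Bub3 had them 74 and 32 bases before it, with TTTGAA on the opposite strand between them at 43. In Cenpa the boxes lay at 109 and 86 on the opposite strand, and in Cenpb these letters were not in this window. A second form of the TTTGAA element, TTTAAA, lay 17 bases before the start in Cenpa and is not in capitals.

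Promoter windows were listed for 33 of the 37 genes, and the 250 bases before each start were searched on both strands. CCAAT was found in 17 of the 33 genes and in 37.5% of the 27025 genes listed. TTTGAA was found in 7 of 33 genes and in 18.3% of all. The E2F site TTTCCCGC was found in 4 of 33 genes (Cenpb, Cenpl, Cenpm and Dsn1) and in 1.03% of all, and does not overlap either of the others in its letters. The second form TTTAAA was found in 5 of 33 genes (Cenpa, Cenpf, Cenpt, Oip5 and Zwint) and in 13.7% of all. Among genes not printed, CCAAT was found for Cenpf, Cenpk, Cenpl and Cenpn, with fitted log2 changes of 1 or more. It was also found for Cenpq and Mis12, at 0.28 and 0.57. Neither CCAAT nor TTTGAA was found for Sgol1, Ndc80 and Nuf2, at 1.45, 0.87 and 0.81. Whether these letters go with the size of the change was not tested. A match is a description of sequence and not a bound site.

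The centromeric histone and its loading factors leaned toward E-cadherin+ cells in all 3 pairs. None passed edgeR's test in either fit, while Hjurp passed with DESeq2 and limma-voom with the block. Cenpa, the histone H3 variant that marks the centromere, stood at 271, 119.9 and 99.0 CPM in E-cadherin+ replicates 1 to 3 and 168, 87.6 and 75.3 CPM in E-cadherin- replicates 1 to 3. Both libraries numbered 1 were high, the populations overlapped, and within each pair E-cadherin+ was the higher, by 0.69, 0.45 and 0.39 on the log2 scale. The fitted change was 0.56 ± 0.47 (SE) with population only and 0.51 ± 0.14 (SE) with the block, where edgeR's adjusted p was 0.260. Without E-cadherin+ replicate 1 the population-only value was -0.013. Hjurp, the chaperone that delivers CENP-A to centromeres, stood at 345, 368 and 337 CPM in E-cadherin+ replicates 1 to 3 and 247, 223 and 236 CPM in E-cadherin- replicates 1 to 3. On this scale its populations did not overlap and it varied little among replicates, at 350.0 ± 15.9 against 235 ± 12.3 CPM (SD, n = 3 each). The fitted change was 0.57 ± 0.20 (SE) and, with the block, 0.57 ± 0.13 (SE, adjusted p = 0.177 in edgeR's test). Oip5, which encodes the Mis18-beta subunit that licenses centromeres for new CENP-A, had a fitted change of 0.77 ± 0.50 (SE) with overlapping populations, and its exons share 172 bases with those of Nusap1 on the opposite strand. Mis18a, the partner of Oip5, matched by its RefSeq transcript to the gene named 2610039C10Rik, which stood at 48.8, 23.2 and 19.4 CPM in E-cadherin+ replicates 1 to 3 and 25.5, 4.33 and 2.52 CPM in E-cadherin- replicates 1 to 3. Its lowest values were those of E-cadherin- replicates 2 and 3, the libraries with background sequence. The pair ratios were 0.93, 2.29 and 2.72 on the log2 scale, and the blocked change was 2.02 ± 0.39 (SE, adjusted p = 0.111 in edgeR's test). With population only it was 1.48 ± 0.85 (SE) and, without both libraries with background sequence, 0.26.

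Cenpb, which encodes a protein that binds a short motif in centromeric satellite repeats and is transcribed in cells of all kinds, had no shared direction over the pairs. It stood at 246, 217 and 254 CPM in E-cadherin+ replicates 1 to 3 and 250.3, 221 and 143 CPM in E-cadherin- replicates 1 to 3. Only E-cadherin- replicate 3 was low, and the other 5 libraries lay within 217 and 254 CPM. The fitted change was 0.22 ± 0.26 (SE), and with the block and without pair 3 it was -0.023.

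The inner network of 12 CENP genes links centromeric chromatin to the outer kinetochore and had a median fitted log2 change of 0.66. All 12 were above 0 (48.5% of all genes), and 11 of the 12 were higher in all 3 pairs (18.9% of all genes). None passed over all genes in either edgeR fit. With the block 7 had an unadjusted p under 0.05, all higher (5.51% of all genes), namely Cenpc1, Cenph, Cenpi, Cenpl, Cenpn, Cenpp and Cenpw. Cenpi, a subunit of the CENP-H, -I, -K and -M group, stood at 24.5, 25.1 and 18.9 CPM in E-cadherin+ replicates 1 to 3 and 13.3, 14.3 and 16.8 CPM in E-cadherin- replicates 1 to 3. The populations did not overlap for Cenpi, and its fitted change was 0.63 ± 0.28 (SE) and with the block 0.62 ± 0.26 (SE, adjusted p = 0.443 in edgeR's test). Cenpo, a peripheral subunit of the network, had the smallest change, at 23.3, 19.7 and 16.6 CPM in E-cadherin+ replicates 1 to 3 and 20.6, 15.5 and 16.4 CPM in E-cadherin- replicates 1 to 3. Its fitted change was 0.18 ± 0.29 (SE), with overlapping populations. Its exons share 1221 bases with Adcy3 on the opposite strand, so its counts may hold reads of that gene.

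Among the other 10, Cenpc1, which encodes the CENP-C scaffold that touches both the CENP-A nucleosome and the Mis12 complex, stood at 24.1, 27.2 and 22.6 CPM in E-cadherin+ replicates 1 to 3 and 15.8, 18.2 and 16.0 CPM in E-cadherin- replicates 1 to 3. All E-cadherin+ libraries were above all E-cadherin- libraries, with little spread inside either population. Cenpl also had no overlap, while Cenph, Cenpk, Cenpm, Cenpn, Cenpp, Cenpq, Cenpt and Cenpw overlapped. Cenpn, whose protein reads the CENP-A nucleosome directly, stood at 55.0, 38.4 and 32.1 CPM in E-cadherin+ replicates 1 to 3 and 33.5, 18.6 and 8.82 CPM in E-cadherin- replicates 1 to 3. Each pair was higher in E-cadherin+, by 0.71, 1.03 and 1.81 on the log2 scale, and the blocked change was 1.19 ± 0.26 (SE, adjusted p = 0.162 in edgeR's test). Fitted changes of Cenpk, Cenpl and Cenpw, at 1.07, 1.23 and 0.88, came with few reads in single libraries. Cenpk had 6 expected counts and Cenpl 17.5 in E-cadherin- replicate 2, and Cenpw had 35 in E-cadherin- replicate 3. Without both libraries with background sequence Cenph (-0.039), Cenpm (-0.23), Cenpo (-0.051) and Cenpw (-0.12) were below 0. So was Cenpq (-0.079) with the block without pair 1. In the fit without those libraries Cenpk, Cenpl, Cenpn, Cenpp and Cenpt had smaller changes, of 0.040, 0.99, 0.32, 0.16 and 0.067. Cenpc1, Cenpi and Cenpq had larger ones there than with all libraries, of 0.64, 0.77 and 0.66. Cenpm, Cenpo, Cenpq and Cenpt had fitted changes of 0.28, 0.18, 0.28 and 0.29, against 0.69 for Cenph and 0.79 for Cenpp.

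The Ndc80 complex, the rod that binds microtubules, held the largest fitted change among the 37 genes found by name. Spc25, a subunit at the centromere-facing end of the rod, whose promoter is also printed above, stood at 76.4, 47.4 and 42.1 CPM in E-cadherin+ replicates 1 to 3 and 30.4, 8.66 and 16.6 CPM in E-cadherin- replicates 1 to 3. Every E-cadherin+ library was above every E-cadherin- library, and E-cadherin- replicate 2 was the lowest of the 6 with 100 expected counts. Spc25 rose with the block, by edgeR's test at an adjusted p of 0.0495 and a fitted log2 change of 1.69 ± 0.26 (SE), a 3.22-fold difference. With population only the fitted change was 1.57 ± 0.48 (SE), and it did not pass. The blocked call ended with scaling by library totals (adjusted p = 0.0597) and with a robust fit (adjusted p = 0.0516), both in edgeR's test. Without both libraries with background sequence the population-only change was 0.86. Ndc80, which encodes the microtubule-binding subunit Hec1, stood at 37.3, 30.0 and 25.6 CPM in E-cadherin+ replicates 1 to 3 and 19.0, 15.2 and 16.4 CPM in E-cadherin- replicates 1 to 3. Nuf2, its coiled-coil partner, stood at 67.6, 52.7 and 41.4 CPM in E-cadherin+ replicates 1 to 3 and 34.0, 37.3 and 20.8 CPM in E-cadherin- replicates 1 to 3. Neither gene had overlapping populations, and their fitted changes of 0.87 ± 0.27 and 0.81 ± 0.31 (SE) were close to each other. Spc24, the partner of Spc25, stood at 181, 105 and 88.5 CPM in E-cadherin+ replicates 1 to 3 and 132, 65.1 and 82.8 CPM in E-cadherin- replicates 1 to 3. It overlapped between populations and had a fitted change of 0.42 ± 0.37 (SE), smaller than that of the other 3 subunits, although all 4 were higher in all 3 pairs.

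Within each library the ratio of subunits does not depend on scaling. On the TPM scale, which corrects for transcript length, Spc25 was at 0.413, 0.447 and 0.468 of Spc24 in E-cadherin+ replicates 1 to 3. The same ratio was 0.226, 0.127 and 0.2005 in E-cadherin- replicates 1 to 3. The populations did not overlap in this ratio, which was singled out after the values were seen and was not tested. Nuf2 over Ndc80 was 1.58 ± 0.091 in E-cadherin+ and 1.68 ± 0.54 in E-cadherin- (SD, n = 3 each), so that pair of subunits kept a like ratio in the means. Spc24 was the most abundant transcript of the complex in all 6 libraries, at 159.5 ± 25.3 against 129 ± 20.6 TPM (SD, n = 3 each), and Ndc80 the least by the mean of either population, at 24.8 ± 3.93 against 14.6 ± 2.40 TPM (SD, n = 3 each).

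**Figure D3:**
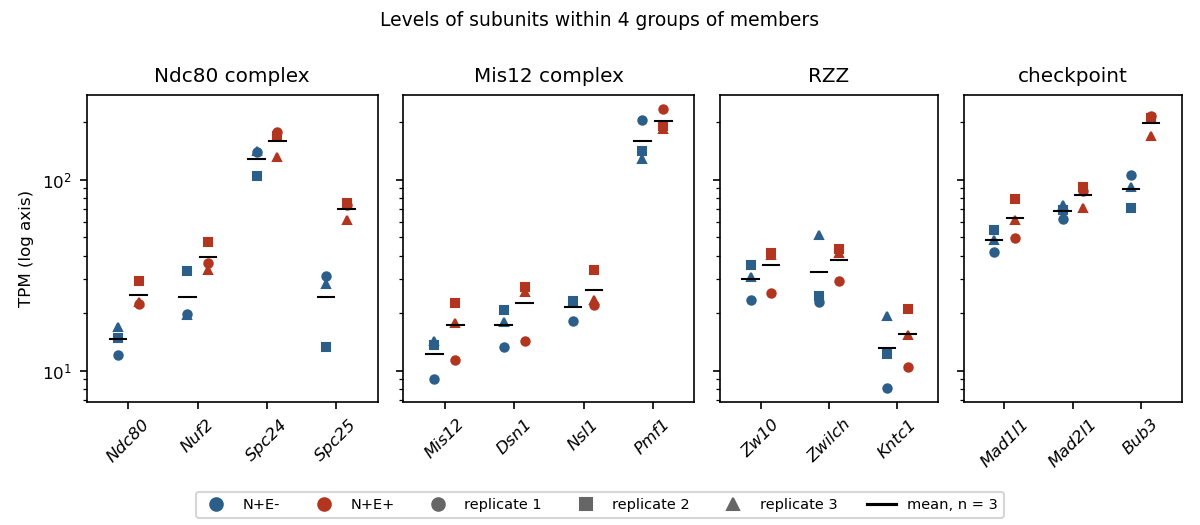
TPM of each subunit in each library on a log axis, with E-cadherin- in blue, E-cadherin+ in red, a symbol for each replicate number and a bar at each mean (n = 3). Spc24 and Pmf1 stand far above the other subunits of their complexes, and Spc25 and Bub3 show red points clear of the blue ones, whereas Mis12 and Zw10 overlap on this scale.

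The Mis12 complex joins the inner network to Ndc80 and Knl1, and its 4 genes had similar, modest changes. Mis12 stood at 24.0, 29.2 and 25.3 CPM in E-cadherin+ replicates 1 to 3 and 17.9, 17.7 and 17.4 CPM in E-cadherin- replicates 1 to 3. Dsn1, the subunit through which Aurora B promotes binding to CENP-C, stood at 25.1, 29.1 and 30.0 CPM in E-cadherin+ replicates 1 to 3 and 21.5, 22.2 and 18.2 CPM in E-cadherin- replicates 1 to 3. Neither gene had overlapping populations, and the fitted changes were 0.57 ± 0.24 and 0.44 ± 0.24 (SE). Mis12 shares 231 exon bases with Derl2 on the opposite strand. Nsl1 stood at 50.6, 47.0 and 35.9 CPM in E-cadherin+ replicates 1 to 3 and 38.8, 32.5 and 30.1 CPM in E-cadherin- replicates 1 to 3. Pmf1 stood at 172, 85.5 and 89.9 CPM in E-cadherin+ replicates 1 to 3 and 141, 63.8 and 54.2 CPM in E-cadherin- replicates 1 to 3. Both overlapped between populations and were higher in each pair, with fitted changes of 0.40 ± 0.24 and 0.42 ± 0.44 (SE). Pmf1 was high in both libraries numbered 1, and its blocked change was 0.48 ± 0.16 (SE, adjusted p = 0.339 in edgeR's test). Pmf1 transcripts, at 203 ± 27.7 against 159 ± 41.7 TPM (SD, n = 3 each), were several times those of Mis12, at 17.2 ± 5.66 against 12.3 ± 2.84 TPM (SD, n = 3 each).

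Casc5, also called Knl1, encodes the scaffold on which the checkpoint kinase Bub1 assembles, and had the lowest TPM of the whole set. It stood at 9.86, 8.10 and 6.51 CPM in E-cadherin+ replicates 1 to 3 and 5.85, 3.81 and 5.25 CPM in E-cadherin- replicates 1 to 3. The populations did not overlap, but the fitted change of 0.71 ± 0.45 (SE) was imprecise, with an adjusted p of 0.602 in edgeR's blocked test. Zwint, which binds Knl1 and helps to recruit the Rod-Zw10-Zwilch complex, stood at 82.7, 64.8 and 59.0 CPM in E-cadherin+ replicates 1 to 3 and 70.1, 43.8 and 57.7 CPM in E-cadherin- replicates 1 to 3. It overlapped between populations, with a fitted change of 0.27 ± 0.26 (SE). Ska1, a subunit of the complex that helps Ndc80 track shrinking microtubules, stood at 26.0, 15.3 and 14.1 CPM in E-cadherin+ replicates 1 to 3 and 12.3, 10.9 and 13.2 CPM in E-cadherin- replicates 1 to 3. The E-cadherin+ libraries were all higher, though replicate 3 only by 0.09 on the log2 scale within its pair, and the fitted change was 0.60 ± 0.35 (SE). The other subunits were found through their RefSeq transcripts as Fam33a (Ska2) and F630043A04Rik (Ska3). Fam33a stood at 52.9, 36.6 and 28.3 CPM in E-cadherin+ replicates 1 to 3 and 28.5, 23.6 and 15.7 CPM in E-cadherin- replicates 1 to 3. F630043A04Rik stood at 55.6, 46.5 and 40.7 CPM in E-cadherin+ replicates 1 to 3 and 31.7, 27.8 and 26.0 CPM in E-cadherin- replicates 1 to 3. All E-cadherin+ libraries were above all E-cadherin- libraries for the second, while E-cadherin+ replicate 3 of the first lay just under E-cadherin- replicate 1. Their fitted changes were 0.80 ± 0.34 and 0.74 ± 0.23 (SE), and with the block 0.79 ± 0.20 (adjusted p = 0.205) and 0.73 ± 0.19 (adjusted p = 0.205) in edgeR's test.

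The outermost layer of the kinetochore showed unequal values. Cenpf, a large farnesylated protein that tethers dynein regulators, stood at 76.7, 39.6 and 33.4 CPM in E-cadherin+ replicates 1 to 3 and 29.4, 18.0 and 25.0 CPM in E-cadherin- replicates 1 to 3. E-cadherin+ libraries were all above E-cadherin- ones, replicate 1 by far, and the fitted change was 1.05 ± 0.38 (SE) and with the block 0.99 ± 0.24 (SE, adjusted p = 0.179 in edgeR's test). Cenpe, the kinesin that carries chromosomes toward the spindle equator, stood at 35.0, 22.5 and 17.2 CPM in E-cadherin+ replicates 1 to 3 and 14.9, 15.2 and 26.3 CPM in E-cadherin- replicates 1 to 3. E-cadherin- replicate 3 was above 2 of the 3 E-cadherin+ libraries, and the pair ratios were 1.205, 0.55 and -0.60 on the log2 scale. Its fitted change was 0.41 ± 0.38 (SE) and, with the block and without pair 1, -0.017. The Rod-Zw10-Zwilch complex brings dynein and the Mad proteins to unattached kinetochores. Zw10 stood at 55.5, 55.2 and 58.6 CPM in E-cadherin+ replicates 1 to 3 and 47.9, 48.0 and 39.0 CPM in E-cadherin- replicates 1 to 3, with no overlap between populations. Zwilch stood at 63.3, 56.4 and 59.2 CPM in E-cadherin+ replicates 1 to 3 and 45.6, 32.0 and 63.2 CPM in E-cadherin- replicates 1 to 3, where E-cadherin- replicate 3 was as high as the E-cadherin+ libraries. Fitted changes of Zw10, Zwilch and Kntc1, which encodes Rod, were 0.33 ± 0.20, 0.35 ± 0.28 and 0.36 ± 0.25 (SE).

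Bub3, which binds phosphorylated Knl1 and brings Bub1 and BubR1 to the kinetochore, and whose promoter is printed above, had the smallest adjusted p of the 37 genes in edgeR's blocked fit. It stood at 339, 201 and 176 CPM in E-cadherin+ replicates 1 to 3 and 155, 68.5 and 82.4 CPM in E-cadherin- replicates 1 to 3. Both libraries numbered 1 were the highest of their population, the populations did not overlap, and the means were 239 ± 87.6 against 102 ± 46.6 CPM (SD, n = 3 each). Bub3 rose with the block, by edgeR's test at an adjusted p of 0.0210 and a fitted log2 change of 1.26 ± 0.15 (SE), a 2.39-fold difference, with pair ratios of 1.12, 1.55 and 1.09. It passed in every fit with the block that was run, and in none without it, where the fitted change was 1.22 ± 0.40 (SE). Without both libraries with background sequence the population-only change was 0.62. Mad2l1, the checkpoint protein that inhibits Cdc20, stood at 114, 72.9 and 61.8 CPM in E-cadherin+ replicates 1 to 3 and 76.1, 55.3 and 55.7 CPM in E-cadherin- replicates 1 to 3. Its populations overlapped and the fitted change was 0.41 ± 0.29 (SE). Mad1l1, which holds Mad2 at unattached kinetochores, was higher in every E-cadherin+ library, with 0.47 ± 0.22 (SE). On the TPM scale Bub3 was 2.48, 2.31 and 2.38 times Mad2l1 in E-cadherin+ replicates 1 to 3 and 1.70, 1.03 and 1.23 times in E-cadherin- replicates 1 to 3, a ratio also singled out after the values were seen and not tested.

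The shugoshins protect the cohesin that holds sister centromeres together. Sgol1, which does so in mitosis, stood at 38.6, 31.3 and 25.4 CPM in E-cadherin+ replicates 1 to 3 and 16.1, 14.8 and 3.78 CPM in E-cadherin- replicates 1 to 3. The populations did not overlap, E-cadherin- replicate 3 had only 36 expected counts, and the fitted change was 1.45 ± 0.52 (SE) and with the block 1.64 ± 0.34 (SE, adjusted p = 0.138 in edgeR's test). Sgol2 stood at 38.3, 31.7 and 20.9 CPM in E-cadherin+ replicates 1 to 3 and 14.6, 6.06 and 29.3 CPM in E-cadherin- replicates 1 to 3. Here E-cadherin- replicate 3 was nearly as high as E-cadherin+ replicate 2 and above its own E-cadherin+ partner, and E-cadherin- replicate 2 was low. The fitted change was 0.87 ± 0.55 (SE), with pair ratios of 1.36, 2.30 and -0.48 on the log2 scale.

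**Figure D4:**
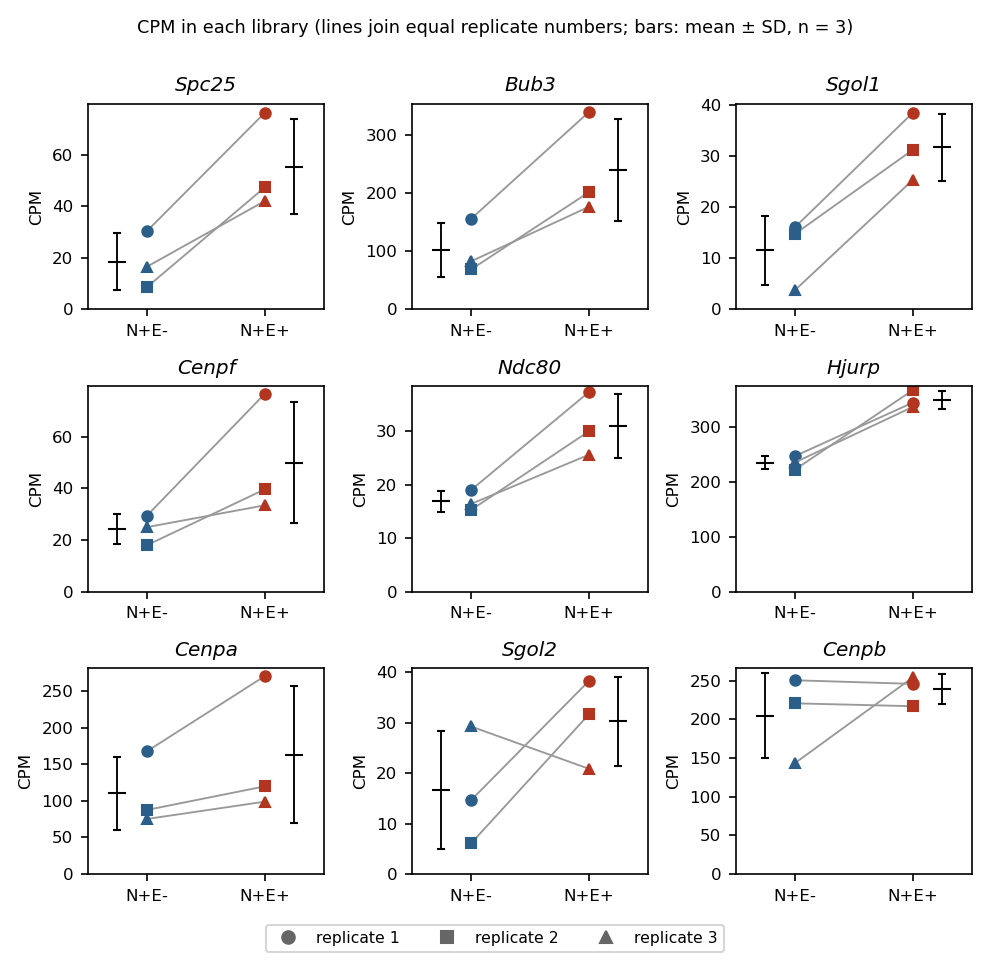
CPM of 9 genes in each library on linear axes from 0, with lines joining equal replicate numbers and black bars for the mean ± SD (n = 3). Lines climb from E-cadherin- to E-cadherin+ in all 3 pairs for Spc25, Bub3, Sgol1, Cenpf, Ndc80, Hjurp and Cenpa, while Sgol2 drops in pair 3 and Cenpb is nearly level in pairs 1 and 2.

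Other genes of the kinetochore and the inner centromere, from a list of 36 of which 35 were found and tested, leaned the same way. In edgeR's test 0 passed with population only, and 9 had an unadjusted p under 0.05, all higher (1.08% of all genes). With the block 4 rose (0.215% of all genes) and 0 fell. DESeq2 without pairing called 2 of them, Aurkb and Incenp (0.156% of all genes in either direction), and limma-voom none. The 4 were Plk1, the kinase that primes kinetochore assembly and attachment (1.33 ± 0.15, SE), Aurkb, the kinase that releases wrong attachments (1.22 ± 0.16), its scaffold Incenp (1.09 ± 0.16), and Kif2c, a kinesin that shortens microtubules at centromeres (0.99 ± 0.14), all on the log2 scale in the blocked fit with edgeR's adjusted p of 0.0168, 0.0300, 0.0371 and 0.0371. Plk1 stood at 402, 255 and 274 CPM in E-cadherin+ replicates 1 to 3 and 186, 104 and 90.1 CPM in E-cadherin- replicates 1 to 3. Aurkb stood at 215, 174 and 131 CPM in E-cadherin+ replicates 1 to 3 and 91.4, 62.8 and 67.6 CPM in E-cadherin- replicates 1 to 3. None of the 4 genes had overlapping populations, and 11 of the 35 were higher without overlap (3.74% of all genes). Incenp stood at 219, 225 and 211 CPM in E-cadherin+ replicates 1 to 3 and 126, 105 and 80.2 CPM in E-cadherin- replicates 1 to 3. Kif2c stood at 152, 149 and 118 CPM in E-cadherin+ replicates 1 to 3 and 76.9, 78.2 and 56.6 CPM in E-cadherin- replicates 1 to 3. The E-cadherin+ values of Incenp lay close together, while Plk1 and Aurkb were highest in replicate 1. Over the 35 genes the median fitted log2 change was 0.45, and 33 were above 0 (48.5% of all genes). The blocked count of 4 was 6, 4 and 15 when pair 1, 2 or 3 was left out, where 194, 139 and 510 of all genes were called.

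Genes of other phases were set beside them as a description. Over 18 genes of mitosis outside the 37, which share Plk1 and Aurkb with the preceding list, the median fitted log2 change was 1.09, larger than the 0.57 of the centromere and kinetochore genes. Over 15 genes of G1-S and replication it was 0.46. In pairs 1 to 3 the mitosis medians were 1.11, 1.27 and 0.93, and those of G1-S were 0.17, 0.66 and 0.80. The differences between these lists were not tested.

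**Figure D5:**
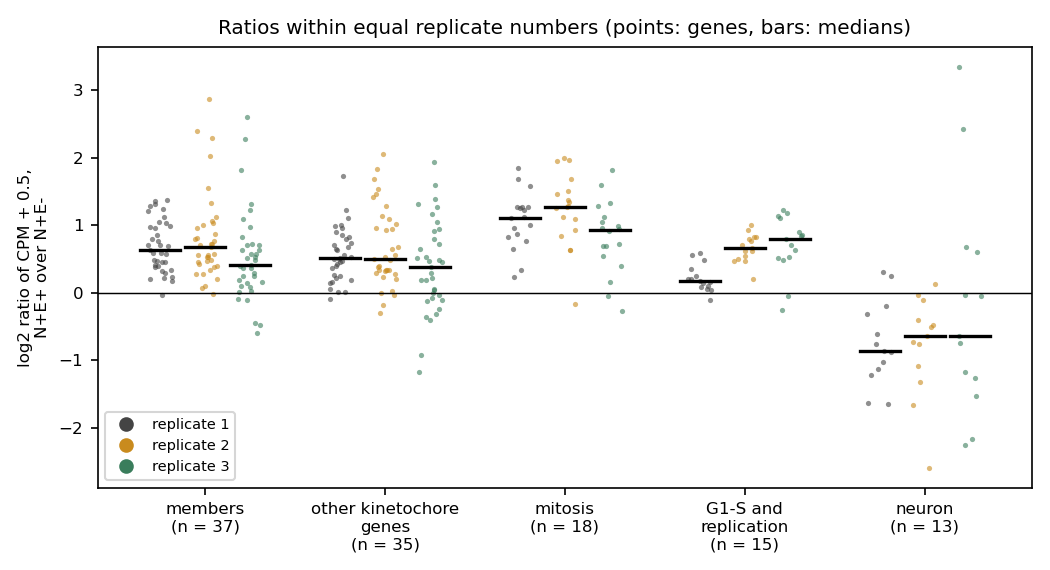
Log2 ratio of CPM + 0.5, E-cadherin+ over E-cadherin-, within each equal replicate number, with a point per gene and a bar at each median, for the 37 genes and 4 other lists. The medians of the 37 genes are 0.64, 0.68 and 0.41, between those of the mitosis genes and 0. Those of G1-S and replication genes are 0.17, 0.66 and 0.80, close to the 37 genes in pair 2 and above them in pair 3. Medians of neuron genes lie under 0.

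Levels within the set spanned a wide range on the TPM scale. By the mean over the 6 libraries the order began with Pmf1 (181 TPM), Cenpa (177), Cenpb (148), Bub3 and Spc24 (144.1 and 144.03), and these 5 overlapped one another between libraries. The order differed between populations: by mean TPM Bub3 stood above Spc24 and Cenpb in E-cadherin+ cells, at 199 ± 26.3 against 89.6 ± 17.5 TPM (SD, n = 3 each), and under both in E-cadherin- cells. Cenpm (85.2 TPM), Mad2l1 (75.8), Hjurp (63.3), Mad1l1 (55.7) and Cenpt (54.7) followed. The order ended with Cenpo (7.76 TPM), Cenpf (5.70), Cenpk (5.50), Cenpe (5.05) and Casc5 (1.80). Casc5 ran from 1.23 to 2.63 TPM over the libraries, while Cenpk, from 0.93 to 10.4 TPM, overlapped both neighbours. In 27 of the 37 genes every library held at least 100 expected counts.

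The genes outside the set whose log2 CPM over the 6 libraries was most like the average standardised profile of the 37 were Cdk1 (Pearson r = 0.998), the kinase that drives mitotic entry, Bub1b (0.993), the checkpoint protein BubR1, and Nusap1 (0.989), a spindle protein. Fbxo15, Ccnb1 and Nup107 (0.988 each), Tmem14a and Pbx2 (0.987 each), Tpst2 (0.986) and Tm9sf2 (0.984) followed. These values rest on 6 libraries that share their depth and scaling, and are given as a description.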

How the data were processed

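RNA-seq of 6 sorted libraries was analysed from gene-level files. The build mm9 and the tools Bowtie and RSEM 1.2.4 are listed, without roles, in the submitters' processing notes. No settings and no strandedness are stated: both were not given in the sources used here. Expected counts and TPM are the values the authors deposited, per the file headers, and RSEM divides reads shared between genes. Expected counts were rounded and tested with edgeR 4.0.16 (R 4.3.3): TMM, filterByExpr (minimum count 10, total 15), quasi-likelihood fits over all 13460 genes kept, Benjamini-Hochberg adjustment, population as the only term. CPM are TMM-scaled unless stated. Each fold change sets Nanog+E-cadherin+ over the other population, and an adjusted p under 0.05 counted as passing. Pair ratios used log2(CPM + 0.5). DESeq2 1.42.0, limma 3.58.1 and other alternatives are given in the closing section. The steps were tested on simulated counts.

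Replicate numbers 1 to 3 occur in both populations. Deviations from the population means correlated across genes at 0.75, 0.41 and 0.48 between equal numbers and from -0.62 to 0.12 between unequal ones, so equal numbers were taken as pairs. That pairing rests on the values alone, as no label names a shared culture. The biological coefficient of variation was 0.499 without and 0.285 with the block. Over the 37 genes alone equal numbers correlated at 0.71, 0.27 and 0.13, and unequal ones from -0.67 to 0.30, so within the set replicates 2 and 3 correlated no better with their own number than with the other.

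The genes and lists were chosen with earlier results of these data known. Genes given in every library are those passing in either fit, the smallest and largest p of each role in the population-only fit, any with a fitted change below 0, and all subunits of the Ndc80, Mis12 and Ska complexes; other kinetochore genes are given where they passed. Cenpc1, Cenpn and the genes matched by transcript were added after their values were seen. Exon overlaps come from GENCODE M21, where 8 of the 37 genes share exon bases with another coding gene. Protein sequences were not used here.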

Additional observations from a re-analysis of the deposited data

How the results depend on the processing

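The count of genes passing was 0 with population only under every scaling, filter, tool and left-out library tried. With the replicate block it was 2, also with DESeq2 size factors, 1 with library totals or a robust fit, and 7 with DESeq2 or limma-voom. It was 4, 5 and 15 without both libraries numbered 1, 2 and 3, fits that hold 2 pairs. Of all 13460 genes the block called 41, with DESeq2 size factors 44, with library totals 35 and with a robust fit 38. DESeq2 with the block called 304 and limma-voom 264, and 194, 139 and 510 were called without pairs 1, 2 and 3. The block changed the call of Bub3 and Spc25 and of no other of the 37 genes in the edgeR fit. No gene passed lower in any setting. Among the 35 other kinetochore genes, 0 passed with population only, except 2 with DESeq2 (21 of all 13460 genes). With the block 4 passed, also with library totals, DESeq2 size factors or a robust fit. With the block 11 passed with DESeq2, 10 with limma-voom, and 6, 4 and 15 without each numbered pair in turn. The counts over all genes in these blocked fits are those given above. The median log2 fold change of 0.57 was 0.56 with the block, 0.41 on log2(TPM + 1), 0.46 on log2(TPM + 0.1) and 0.39 without both libraries with background sequence, and leaving out 1 library gave 0.42 to 0.65, lowest without Nanog+E-cadherin+ replicate 1. The count of 16 genes without overlap (3.74% of all genes) was 21 without both libraries with background sequence. Only E-cadherin- replicate 1 was then left to exceed, and the share of all genes was 21.5%. On the TPM scale the count was 10 (3.19% of all genes). Both alternatives were chosen after seeing the data. Without those 2 libraries the fitted changes of 9 genes were below 0, namely Cenpa (-0.041), Cenpb (-0.067), Cenph (-0.039), Cenpm (-0.23), Cenpo (-0.051), Cenpw (-0.12), Pmf1 (-0.28), Spc24 (-0.078) and Zwint (-0.026). So were those of Cenpb with the block without pair 3 (-0.023), and of Cenpe (-0.017) and Cenpq (-0.079) with it without pair 1. Leaving out 1 library gave -0.013 to 1.003 for Cenpa and -0.10 to 0.63 for Cenpm. The cause of these changes was not tested. DESeq2 without pairing gave no adjusted p for 22 of the 37 genes. Low counts limit Cenpk, Cenpl, Cenpw and Sgol1.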
